A study of Mus with 3 samples.

Results

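The cells described here are RARα-KO CD8 T cells from MC38 tumors whose T cell receptor (TCR) beta chain used the V gene TRBV16. They were chosen by measured values: a RARα-KO hashtag of 10 or more UMIs that was 3 or more times the next hashtag, 500 or more gene UMIs, a clonotype number in the contig table, and Cd8a detected while Cd4 was not. This rule kept 1039 of 5600 barcodes with 500 or more gene UMIs. Of these, 1025 had a beta-chain contig (TRB), and the contig with the most UMIs named TRBV16 in 601 cells (58.6%) and another V gene in 424 cells (41.4%). The remaining 14 cells of 7 clonotypes had no TRB contig and entered neither set. The barcode just inside the hashtag limit had a ratio of 3.01, the one just outside had 2.86, and the median inside was 22.3.

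The study asked how the level of RARα, a nuclear receptor for retinoic acid, in T cells affects T cells in tumors. T cells sorted as CD45.2+ CD3+, mixed with unsorted cells, came from tumors of MC38, a mouse colon adenocarcinoma line, on day 16. The mice were WT, RARα-KO or RARα-TG. The paper states an age range for most of its experiments, and the age of these animals was not given. The 3 genotypes carried the hashtag antibodies C0301, C0302 and C0303, respectively, and were pooled into 1 library of a 5′ single-cell kit with TCR amplification. The labels also name spleen and naive CD8 T cells activated with anti-CD3/28+IL-2, which differs from the tumor protocol in the same labels, and the protocol was followed. RARα-KO mice were dLck-Cre×Rara L/L, in which Cre under the distal Lck promoter deletes part of Rara in T cells, and a transcript without exon 8 is still made. RARα-TG mice expressed Rara under the CD2 promoter, and WT was either C57BL/6 or dLck-Cre. The number of mice per genotype and the WT strain of the tumor were likewise not stated. With 1 sample for each genotype no test was possible, and the 95% intervals below are exact and cover counting error only, not variation between mice or clonotypes.

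An alpha-beta TCR is assembled in the thymus by joining V and J gene segments for the alpha chain and V, D and J segments for the beta chain. The joint region, CDR3, contacts the peptide that the receptor recognizes on an MHC molecule, and bases are trimmed and added at the joints. Cells with the same rearranged alpha and beta chains descend, as a rule, from 1 thymic precursor and are called a clonotype. Activated CD8 T cells kill target cells with granzymes, which are serine proteases, and perforin, which lets them enter the target.

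The CDR3 nucleotides of the 5 largest TRBV16 clonotypes are given so that their alpha and beta chains can be compared. They are written 5′ to 3′ from the contig table, and capitals mark the bases outside the stretches that most receptors with the same V gene or J gene had in common. The beta chain of clonotype 1 (119 cells) joined TRBV16 to TRBJ1-3, that of clonotype 3 (77 cells) to TRBJ1-4, those of clonotypes 4 (76 cells) and 13 (29 cells) to TRBJ2-1 and that of clonotype 9 (39 cells) to TRBJ2-7.
Clonotype 1, beta: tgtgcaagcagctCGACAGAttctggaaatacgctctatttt
Clonotype 3, beta: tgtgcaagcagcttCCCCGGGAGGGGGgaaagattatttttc
Clonotype 4, beta: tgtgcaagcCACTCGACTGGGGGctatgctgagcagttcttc
Clonotype 9, beta: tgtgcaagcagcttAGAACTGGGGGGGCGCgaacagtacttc
Clonotype 13, beta: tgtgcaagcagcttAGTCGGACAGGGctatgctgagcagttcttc
Clonotype 1, alpha (TRAV14N-3, TRAJ22): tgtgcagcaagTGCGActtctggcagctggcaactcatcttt
Clonotype 3, alpha (TRAV14N-3, TRAJ22): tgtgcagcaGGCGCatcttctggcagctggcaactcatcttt
Clonotypes 4 and 13, alpha (TRAV12D-1, TRAJ22): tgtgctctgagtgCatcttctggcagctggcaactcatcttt
Clonotype 9, alpha (TRAV3-3, TRAJ7): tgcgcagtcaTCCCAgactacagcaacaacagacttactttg
Clonotypes 4 and 13 had different beta chains and the same alpha CDR3 to the base, in which 1 base lay outside the shared stretches.

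The 5 largest clonotypes with another TRBV are given for contrast. Clonotype 2 (74 cells) joined TRBV3 to TRBJ2-2, clonotype 14 (27 cells) TRBV5 to TRBJ2-3, clonotype 15 (26 cells) TRBV3 to TRBJ2-3, clonotype 30 (17 cells) TRBV3 to TRBJ1-4 and clonotype 22 (16 cells) TRBV5 to TRBJ1-1.
Clonotype 2, beta: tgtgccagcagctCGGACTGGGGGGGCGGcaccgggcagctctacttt
Clonotype 14, beta: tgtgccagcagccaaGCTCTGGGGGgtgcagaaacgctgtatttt
Clonotype 15, beta: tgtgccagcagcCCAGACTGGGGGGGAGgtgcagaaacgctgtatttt
Clonotype 30, beta: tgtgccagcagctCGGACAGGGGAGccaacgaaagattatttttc
Clonotype 22, beta: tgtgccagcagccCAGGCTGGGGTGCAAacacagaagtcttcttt
Clonotype 2, alpha (TRAV3D-3, TRAJ31): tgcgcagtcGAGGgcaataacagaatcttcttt
Clonotype 14, alpha (TRAV7D-2, TRAJ7): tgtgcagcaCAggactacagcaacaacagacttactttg
Clonotype 15, alpha (TRAV16, TRAJ33): tgtgctatgagagaTAatcagttgatctgg
Clonotype 30, alpha (TRAV7D-3, TRAJ40): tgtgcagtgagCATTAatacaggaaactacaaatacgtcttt
Clonotype 22, alpha (TRAV16N, TRAJ32): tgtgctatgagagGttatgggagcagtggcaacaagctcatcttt
These 5 alpha chains used 5 different J genes, with CDR3 lengths from 30 to 45 nucleotides, whereas 4 of the 5 TRBV16 clonotypes above used TRAJ22 and all 5 of their alpha CDR3 had 42 nucleotides.

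The gene expression library, which is read apart from the contigs, gave the same V genes for TRBV16, for TRAV14N-3 and, in clonotype 9, for TRAV3-3. Trbv16 had a level of 1770 CPM (UMIs scaled to 1e+06 gene UMIs of the set) in the TRBV16 cells and 33.7 CPM in the other cells, with 1 or more UMIs in 99.8% and 3.77% of cells. Trav14n-3 was detected in 93.6% of 249 TRBV16 cells whose alpha contig was TRAV14N-3 and in 0 of 139 whose alpha contig was TRAV12D-1, which allows a share of up to 2.62%. Trav12d-1 itself had 0 UMIs in both sets, so this library gave no check of the TRAV12D-1 contigs. Trav3-3 was detected in 38 of 39 cells of clonotype 9. Clonotype 3 was the exception. An alpha contig was found in 29 of its 77 cells, at a median of 2 UMIs, and 30 of its cells had Trav14n-3 UMIs, 48 had Trav3-3 UMIs and 19 had both. The alpha chain given above for clonotype 3 was thus read in part of its cells, and whether the other cells lack it was not tested. Among the other 13 TRBV16 clonotypes with 10 or more cells, none had cells with UMIs of both genes.

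Cd8b1, the second CD8 chain, which the rule did not use, was detected in 94.7% of TRBV16 and 94.6% of other cells, at 808 and 799 CPM. The CD3 genes Cd3d, Cd3e and Cd3g ranged from 1250 to 1380 CPM over both sets. Cd8a and Cd4 belonged to the rule and say nothing further. Cells had a median of 5515 UMIs (1343 to 77198) and 1948 genes in the TRBV16 set, against 5376 UMIs (1463 to 49681) and 1898.5 genes in the other set. Summed gene UMIs were 4138447 and 3027802. The median mitochondrial share was 0.863% and 0.833%. NK cell markers summed to 39.9 CPM in TRBV16 and 36.3 CPM in other cells (3 of 5 detected in each). Of this, 31.7 and 30.4 CPM were Eomes, which T cells also express, and Ncr1 and Klra8 were at 0. Dendritic cell markers summed to 134 and 123 CPM (2 of 5 and 3 of 5 detected). Of this, 133 and 123 CPM were Ccr7, which T cells express too, and Clec9a and Cd209a were at 0. Myeloid markers summed to 171 CPM in TRBV16 and 117 CPM in other cells (9 of 9 detected in each), and MC38 or stromal markers to 122 and 185 CPM (6 of 7 in each). The B cell markers were at 3.62 and 1.65 CPM (4 of 4 and 1 of 4 detected). Cells with 5 or more UMIs of such markers numbered 15 and 13. More than 1 TRB contig was found in 66 TRBV16 cells (11.0%) and 17 other cells (4.01%). Rara was at 76.4 and 74.3 CPM, so both sets of RARα-KO cells contained its transcript at a like level (log2 ratio 0.04, 95% interval -0.21 to 0.29).

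The TRBV16 cells were spread over 54 clonotypes with 39 distinct beta CDR3 nucleotide sequences, and the other cells over 116 clonotypes with 103. The number of beta sequences is lower than that of clonotypes in part because cells in which no alpha chain was read received a clonotype number of their own. Clonotype 23, for example, had the beta chain of clonotype 4 and no alpha contig in its 17 cells. Clonotypes 1 and 90, by contrast, had the same beta chain with 2 different alpha chains. Clonotypes 20 and 57 held cells of both sets. Of the 21 cells of clonotype 20, 12 had TRBV16 as the beta contig with the most UMIs and 9 had another V gene. The 8 cells of clonotype 57 were split 4 to 4, and it was counted among the clonotypes with another TRBV. No cell of a RARα-KO TRBV16 clonotype carried the WT or the RARα-TG hashtag. In the other set, clonotypes 2, 10, 16 and 40 had 74, 2, 1 and 1 RARα-KO cells. These clonotypes also had 1, 36, 22 and 12 cells, respectively, with the hashtag of another genotype.

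TRAJ22 was the commonest alpha J gene of TRBV16 clonotypes. An alpha chain was known for 39 of the 54 TRBV16 clonotypes, and 29 of these (74.4%, 95% interval 57.9% to 87.0%) used TRAJ22. Among 91 clonotypes with another TRBV and a known alpha chain, 11 used TRAJ22 (12.1%, 6.19% to 20.6%). Counted over cells, TRAJ22 was in 399 of 494 TRBV16 cells (80.8%) and in 32 of 365 other cells (8.77%). With each distinct beta sequence counted once, the share in TRBV16 was 73.0% (27 of 37), close to the share over clonotypes.

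**Figure D1:**
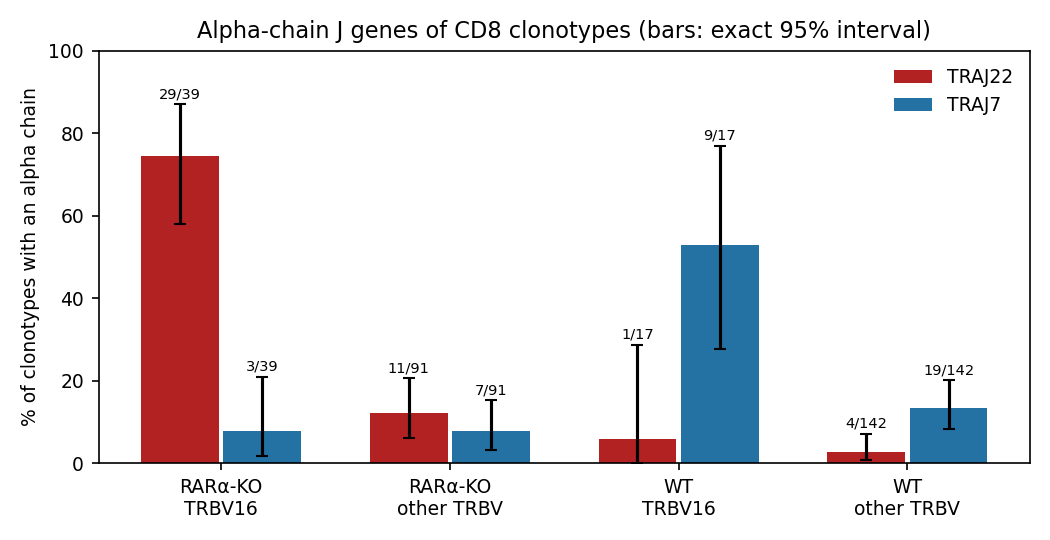
Percentage of clonotypes with a known alpha chain (y axis, 0 to 100%) that used TRAJ22 (red) or TRAJ7 (blue) in TRBV16 and other TRBV CD8 cells of RARα-KO and WT (x axis), with exact 95% intervals for counting error and the counts above. TRAJ22 stands at 74.4% in RARα-KO TRBV16 clonotypes and at 12.1% or less in the 3 other groups, while TRAJ7 leads in WT TRBV16 clonotypes at 52.9%.

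Among V genes, TRAV14N-3 was used by 18 of the 39 TRBV16 clonotypes (46.2%, 30.1% to 62.8%) and TRAV12D-1 by 9 (23.1%, 11.1% to 39.3%). All 18 clonotypes with TRAV14N-3 and all 9 with TRAV12D-1 used TRAJ22. The other 2 TRAJ22 clonotypes carried TRAV14-3 and TRAV14D-3-DV8, which belong to the TRAV14 family as TRAV14N-3 does. In the other TRBV set, 3 clonotypes with 6 cells paired TRAV14N-3 with TRAJ22.

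The TRAJ22 group had fewer alpha than beta sequences. In 29 of the 29 clonotypes the alpha CDR3 had 42 nucleotides. In the other TRBV set, 42 was the commonest alpha CDR3 length too, in 8 of 11 clonotypes with TRAJ22 and in 19 of 73 with another TRAJ than TRAJ22 or TRAJ7 (26.0%). The 29 TRBV16 clonotypes had 14 alpha sequences, which translated to 10, and 27 beta sequences, which translated to 27. The beta chains of this group used 10 TRBJ genes, of which TRBJ1-1 was the commonest with 6 clonotypes, and their CDR3 had 36 to 48 nucleotides.

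One alpha sequence recurred in 10 TRBV16 clonotypes with 66 cells. The 10 clonotypes had 10 different beta sequences with 8 TRBJ genes. This alpha chain and the beta chains of the 3 largest of these clonotypes, with 20, 15 and 10 cells, are given beside each other. These clonotypes were picked after their pairing had been seen.
Shared alpha (TRAV14 family, TRAJ22): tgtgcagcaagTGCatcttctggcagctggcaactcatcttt
Clonotype 21, beta (TRBJ2-1): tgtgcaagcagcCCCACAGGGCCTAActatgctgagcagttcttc
Clonotype 34, beta (TRBJ2-4): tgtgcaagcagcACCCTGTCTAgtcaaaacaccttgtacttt
Clonotype 49, beta (TRBJ1-2): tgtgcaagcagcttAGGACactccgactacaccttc
Counted by translation, this chain stood in 12 clonotypes with 12 betas and 76 cells, encoded by 3 nucleotide sequences. The TRAV12D-1 chain of clonotypes 4 and 13 was found in 5 clonotypes with 5 betas and 149 cells, namely 4, 13, 18, 20 and 133. A further TRAV14N-3 chain was shared by clonotypes 11 and 156, with 26 cells. The chain shared by 10 TRBV16 clonotypes was also in 3 clonotypes with another TRBV and 7 cells. Within the other TRBV set, only 1 further alpha sequence was found with more than 1 beta, and its 2 betas, in clonotypes 14 and 768, had the same translation. Median alpha UMIs per cell in the largest clonotypes that shared a chain were 5 in clonotype 4, 5 in clonotype 13, 3 in clonotype 18, 3 in clonotype 20, 4.5 in clonotype 21 and 8 in clonotype 34. The part of alpha reads carried over from other cells of the pool was not tested.

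A smaller group of TRBV16 clonotypes paired with TRAJ7. It had 3 of the 39 clonotypes (7.69%, 1.62% to 20.9%). Counted by the contig of each cell it had 61 cells, of which 39 had the receptor of clonotype 9 and 4 belonged to clonotype 57. Here a beta chain recurred. In 6 clonotype numbers with 67 cells, 2 beta nucleotide sequences gave 1 translation, and they were found with 2 alpha sequences. TRAJ7 was used by 7 of 91 clonotypes with another TRBV (7.69%, 3.15% to 15.2%), so the intervals of both sets overlapped.

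In WT tumors, where TRBV16 was used by 80 of 770 CD8 cells with a TRB contig (10.4%), the order of the alpha partners was the opposite. Of 17 WT TRBV16 clonotypes with a known alpha chain, 9 used TRAJ7 (52.9%, 27.8% to 77.0%) and 1 used TRAJ22. The beta chain used TRBJ2-7 in 12 of 25 WT TRBV16 clonotypes (48.0%) and in 7 of 54 of RARα-KO (13.0%). The WT chain of clonotype 8 and of 3 further clonotype numbers, with 53 cells in all, is given for comparison with clonotype 9.
WT clonotype 8, beta (TRBJ2-7): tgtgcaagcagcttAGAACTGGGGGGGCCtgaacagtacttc
The RARα-KO beta sequences of clonotypes 9 and 31 differed from the WT ones of clonotypes 8, 129, 266 and 976, all of 42 nucleotides, at 2 to 4 positions. They differed at 2 positions each from the WT sequence of clonotype 170, which had the same translation. No beta nucleotide sequence of the 38 that led a RARα-KO clonotype was among the 22 in WT. One translated beta chain was found in both, in 67 RARα-KO and 3 WT cells, and 1 alpha sequence with TRAJ7 was found in 17 RARα-KO and 36 WT cells. TRAJ22 was in 4 of 142 WT clonotypes with another TRBV. RARα-TG tumors had 5 TRBV16 cells, with 2 known alpha chains, of which 1 used TRAJ7.

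TRAJ22 was not seen beside TRBV16 in RARα-KO CD4 cells. Among these, 14 of 234 with a TRB contig used TRBV16 (5.98%), in 11 clonotypes with known alpha chains, of which 0 used TRAJ22 and 0 used TRAJ7. Whether this differs from the CD8 cells was not tested.

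TRBV16 cells belonged to larger clonotypes than the other RARα-KO CD8 cells. The largest TRBV16 clonotypes had 119, 77 and 76 cells and the largest of the other set had 74, 27 and 26. The median clonotype had 3 cells in the TRBV16 set and 1 in the other. Clonotypes of 10 or more cells held 81.5% of the TRBV16 cells (95% interval 78.2% to 84.6%) and 50.9% of the others (46.1% to 55.8%). Clonotypes of 50 or more held 45.3% (41.2% to 49.3%) and 17.0% (13.5% to 20.9%). Cells alone in their clonotype were 3.49% (2.18% to 5.29%) and 17.0% (13.5% to 20.9%). Cells of a clonotype divide from 1 ancestor, so these intervals are narrower than the uncertainty of the clonotype as a unit. In WT, clonotypes of 10 or more held 63.7% of TRBV16 cells (52.2% to 74.2%) and 58.1% of others (54.3% to 61.8%), with overlapping intervals.

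**Figure D2:**
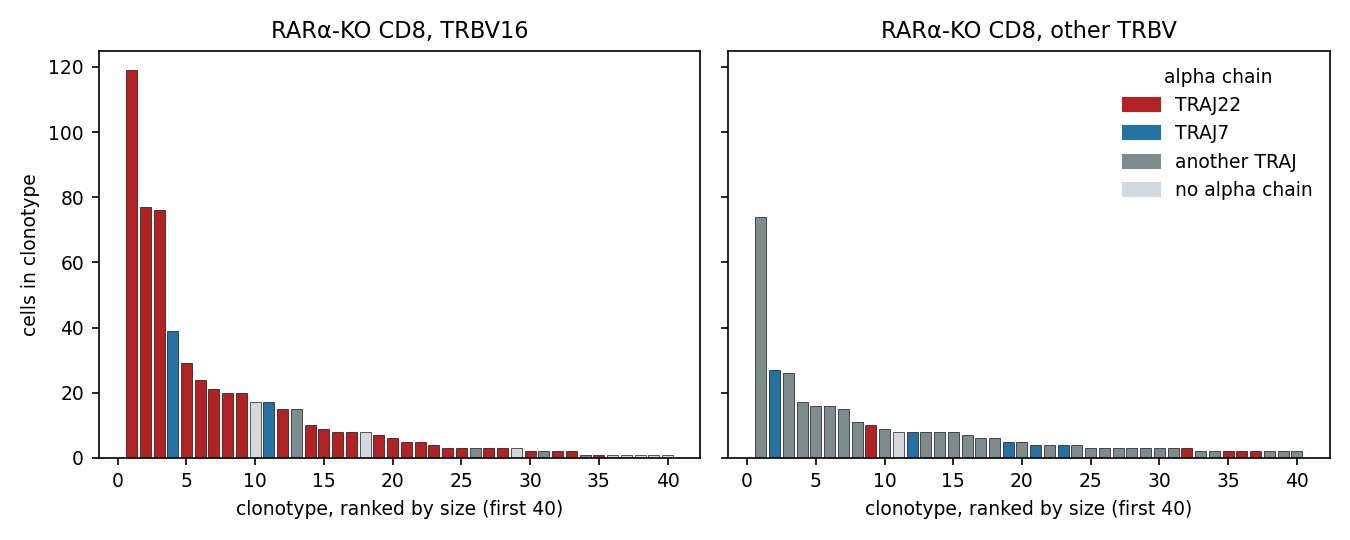
Cells per clonotype (y axis) for the 40 largest clonotypes of each RARα-KO CD8 set, ranked by size (x axis) and coloured by the J gene of the alpha chain. TRAJ22 (red) is the alpha J gene read in each of the 3 TRBV16 clonotypes above 50 cells, for clonotype 3 in 29 of its 77 cells, and the largest clonotype of the other set, with 74 cells, uses another TRAJ.

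With TCR genes left out, 6780 genes reached a mean of 0.1 UMI per cell in at least 1 set. Over them the median log2 ratio of CPM (TRBV16 over other) was -0.02, and from the 5th to the 95th percentile it ran from -0.45 to 0.34. A gene was called if its ratio was 2-fold or more and the interval excluded 0. By this rule 16 genes were higher in TRBV16 cells (0.236% of the genes) and 41 were lower (0.605%). At any fold, the interval lay above 0 for 339 genes (5.0%) and below 0 for 501 (7.39%). Clonotypes overlapped for every gene. For no gene (0.0%) did each of the 14 TRBV16 clonotypes with 10 or more cells lie above, or each below, all 8 such clonotypes of the other set.

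**Figure D3:**
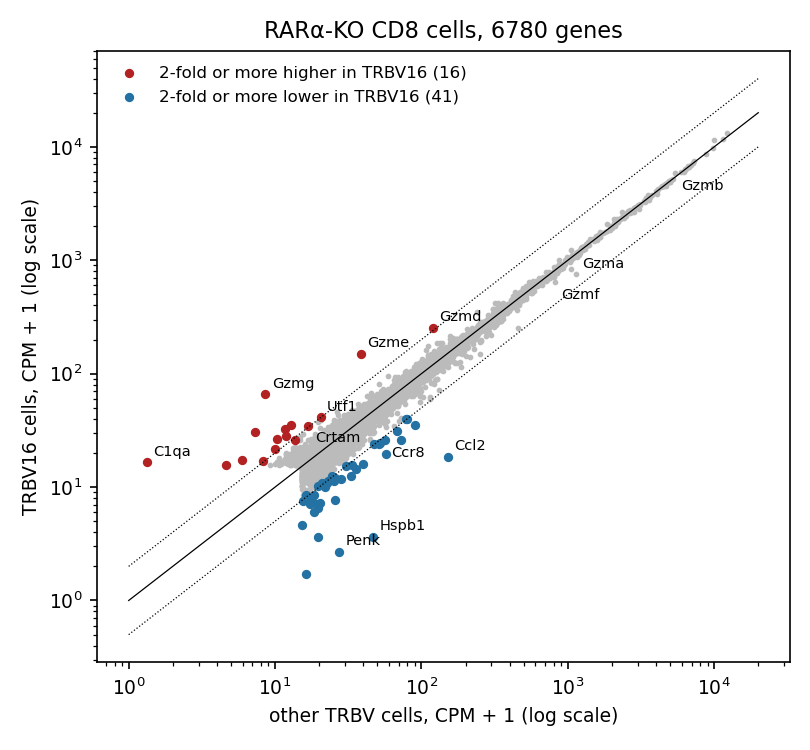
Level of each of 6780 genes in RARα-KO CD8 cells with another TRBV (x axis) and with TRBV16 (y axis), in CPM plus 1 on log scales, with 2-fold lines dotted. The 16 genes higher and 41 lower in TRBV16 cells are mostly of low level, and Gzmb lies on the diagonal at 5860 and 5390 CPM.

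Many called genes came from single cells. Of the 16 higher genes, 5 had 50% or more of their TRBV16 UMIs in 1 cell, namely Apoe, C1qa, C1qb, Cryab and Tubb3, and 9 had 50% or more in 1 clonotype. C1qa, a complement gene of macrophages, was at 15.7 and 0.33 CPM (log2 ratio 5.57, interval 3.04 to 10.9, with 1 UMI in the other set), and 93.8% of its UMIs came from 1 cell. C1qb (25.4 and 9.25 CPM) had 85.7% and Apoe (16.2 and 4.95 CPM), an apolipoprotein of macrophages, 89.6% in 1 cell. The 12 highest were taken from called genes whose sign held with clonotypes weighted equally and without the largest clonotype of either set. Others among them were Slpi, a protease inhibitor (29.7 and 6.28 CPM), Arg1, the arginase of myeloid cells (34.6 and 11.9 CPM), Tubb3, a tubulin (31.7 and 10.6 CPM), and Cryab, a small heat shock protein (27.3 and 10.9 CPM). These 4 genes were detected in 0.666% (Slpi) to 1.83% (Tubb3) of the TRBV16 cells. Under other settings some signs turned. Arg1 was at -0.77 with cells thinned to 1000 UMIs, and Apoe was at -1.38 and C1qb at -1.49 at a hashtag 10 times the next. The summed myeloid markers, 171 against 117 CPM, moved with this group. Without the cells with 5 or more UMIs of other cell types' markers, 11 genes were higher and 12 lower. Of the 16 and 41, 7 and 16 were still past 2-fold, and Apoe turned to -2.5.

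Crtam and Utf1 were called higher and drew on more cells than these. Crtam (chromosome 9, 40972798 to 41004628, GRCm38), an adhesion receptor of activated CD8 T cells, was at 33.8 CPM in TRBV16 and 15.9 CPM in other cells (log2 ratio 1.09, interval 0.61 to 1.60) and was detected in 11.5% and 7.31% of cells. Over clonotypes of 10 or more cells it ran from 0.0 to 75.4 CPM with a median of 15.5 in TRBV16, and from 0.0 to 33.8 with a median of 4.35 in the other set, so the ranges overlapped. Clonotype 1 gave 56.4% of its TRBV16 UMIs, and without clonotype 1 the log2 ratio of Crtam was 0.34, which was not past 2-fold. Utf1 (chromosome 7, 139943856 to 139945112), known as a chromatin factor of embryonic stem cells, was at 40.1 and 19.5 CPM (1.04, 0.6 to 1.5), in 17.0% and 9.43% of cells. Its clonotypes had 7.11 to 121 CPM with a median of 40.8 in TRBV16 and 9.39 to 43.5 with a median of 19.7 in the other set. At most 6.02% of its TRBV16 UMIs came from 1 cell and 19.9% from 1 clonotype. Without the largest clonotype of the TRBV16 set the log2 ratio of Utf1 was 1.16, and without that of the other set it was 0.97. Kcna3, a potassium channel of T cells, was the third called gene with under 10% of its UMIs in any 1 cell, and was singled out after its values were seen.

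The 12 lowest called genes, taken by the same rule on their sign, included Ccl2, a monocyte chemokine (17.6 and 151 CPM), Il1b, an inflammatory cytokine (18.6 and 56.1 CPM), the matrix proteases Mmp2 (25.1 and 72.0 CPM), Mmp14 (6.77 and 24.8 CPM) and Adamts1 (2.66 and 18.5 CPM), and Vcam1, an adhesion molecule of endothelium and stroma (5.07 and 17.5 CPM). The list also held Pmp22, a membrane protein of Schwann cells (5.56 and 18.8 CPM), Nrp2, a semaphorin receptor (6.04 and 18.8 CPM), Steap2, a metalloreductase (6.28 and 19.2 CPM), Gm45833 (0.725 and 15.2 CPM), Hspb1, a small heat shock protein (2.66 and 45.6 CPM), and Penk, which encodes the opioid precursor proenkephalin (1.69 and 26.4 CPM). In 9 of the 41, 50% or more of the UMIs in the other set came from 1 cell. The share was 75.5% for Ccl2, 96.4% for Hspb1 and 67.5% for Penk. The sum of MC38 or stromal markers, 122 against 185 CPM, moved with these genes, and its part in the single ratios was not tested beyond leaving out marked cells, which turned the log2 ratio of Ccl2 to 1.5 and of Nrp2 to 1.83. Hspb1 turned to 0.87 in cells with 1 TRB and at most 2 TRA contigs. Ccr8, a chemokine receptor of activated and regulatory T cells (chromosome 9, 120092133 to 120094906), was the 1 called gene of the 15 trafficking and residence genes compared, at 24.9 against 55.5 CPM (log2 ratio -1.16, -1.52 to -0.79), in 10.6% and 16.5% of cells. Its clonotypes overlapped, with 3.67 to 70.7 CPM in TRBV16 and 0.0 to 195 in the other set. The ratio was -0.77 without clonotype 1 and -0.79 without the largest other clonotype, so Ccr8 was then not past 2-fold.

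Granzyme genes varied widely between clonotypes within each set. Of 18 cytotoxic granule genes compared, 8 had an interval above 0 and 5 below, 3 were called higher and 0 lower, and the median ratio was 0.11. Of all genes, 5.0% had an interval above 0 and 7.39% below, 0.236% were called higher and 0.605% lower, and the median was -0.02. The median half-width of the log2 intervals was 0.12 for this list and 0.34 for all genes. Shares of intervals without 0, here and for the lists below, thus rest on unlike widths. Gzmb (chromosome 14, 56258836 to 56262334), the main granzyme of effector cells, was at 5860 and 5390 CPM (log2 ratio 0.12, 0.09 to 0.15). Perforin (Prf1) was at 557 and 501 CPM (0.15, 0.06 to 0.25). Gzma was at 757 and 1140 CPM (-0.59, -0.66 to -0.52). Gzmg, Gzme and Gzmd were the 3 called genes, at 65.0 against 7.60, 149 against 37.7 and 253 against 119 CPM. For Gzmg (chromosome 14, 56156581 to 56159579), 89.2% of the TRBV16 UMIs came from clonotype 9, and without TRAJ7 cells the ratio was -0.27 in place of 3.10. Clonotype 9 also gave 44.1% of the UMIs of Gzme and 47.3% of those of Gzmd. Without clonotype 9, a comparison added after the data were seen, Gzmd was at 145 against 119 CPM (log2 ratio 0.28, 0.09 to 0.48) and Gzme at 90.1 against 37.7 CPM (1.26, 0.95 to 1.58). Gzmg was then at 7.60 CPM in both sets. Clonotype 72 had the beta chain of clonotype 9 and no alpha contig in its 8 cells. It stayed in this comparison and in the one without TRAJ7 cells, with 335 CPM of Gzmg (16 UMIs), 816 of Gzmd, 335 of Gzme and 1380 of Gzmf. Over TRBV16 clonotypes of 10 or more cells, Gzme ran from 0.0 to 845 CPM, with 152 in clonotype 1 and 166 in clonotype 3. In the other set it ran from 0.0 to 135 CPM, so the ranges overlapped. Among TRBV16 cells with TRAJ22, Gzme was detected in 17 of 399. With clonotypes weighted equally, the ratio of Gzmd was -0.1. Gzmf (chromosome 14, 56205263 to 56211407), from the same gene cluster, was at 636 and 816 CPM (-0.36, -0.44 to -0.28), with 72.5% of its TRBV16 UMIs in clonotype 9, and at -1.62 without TRAJ7 cells and -2.10 without clonotype 9.

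**Figure D4:**
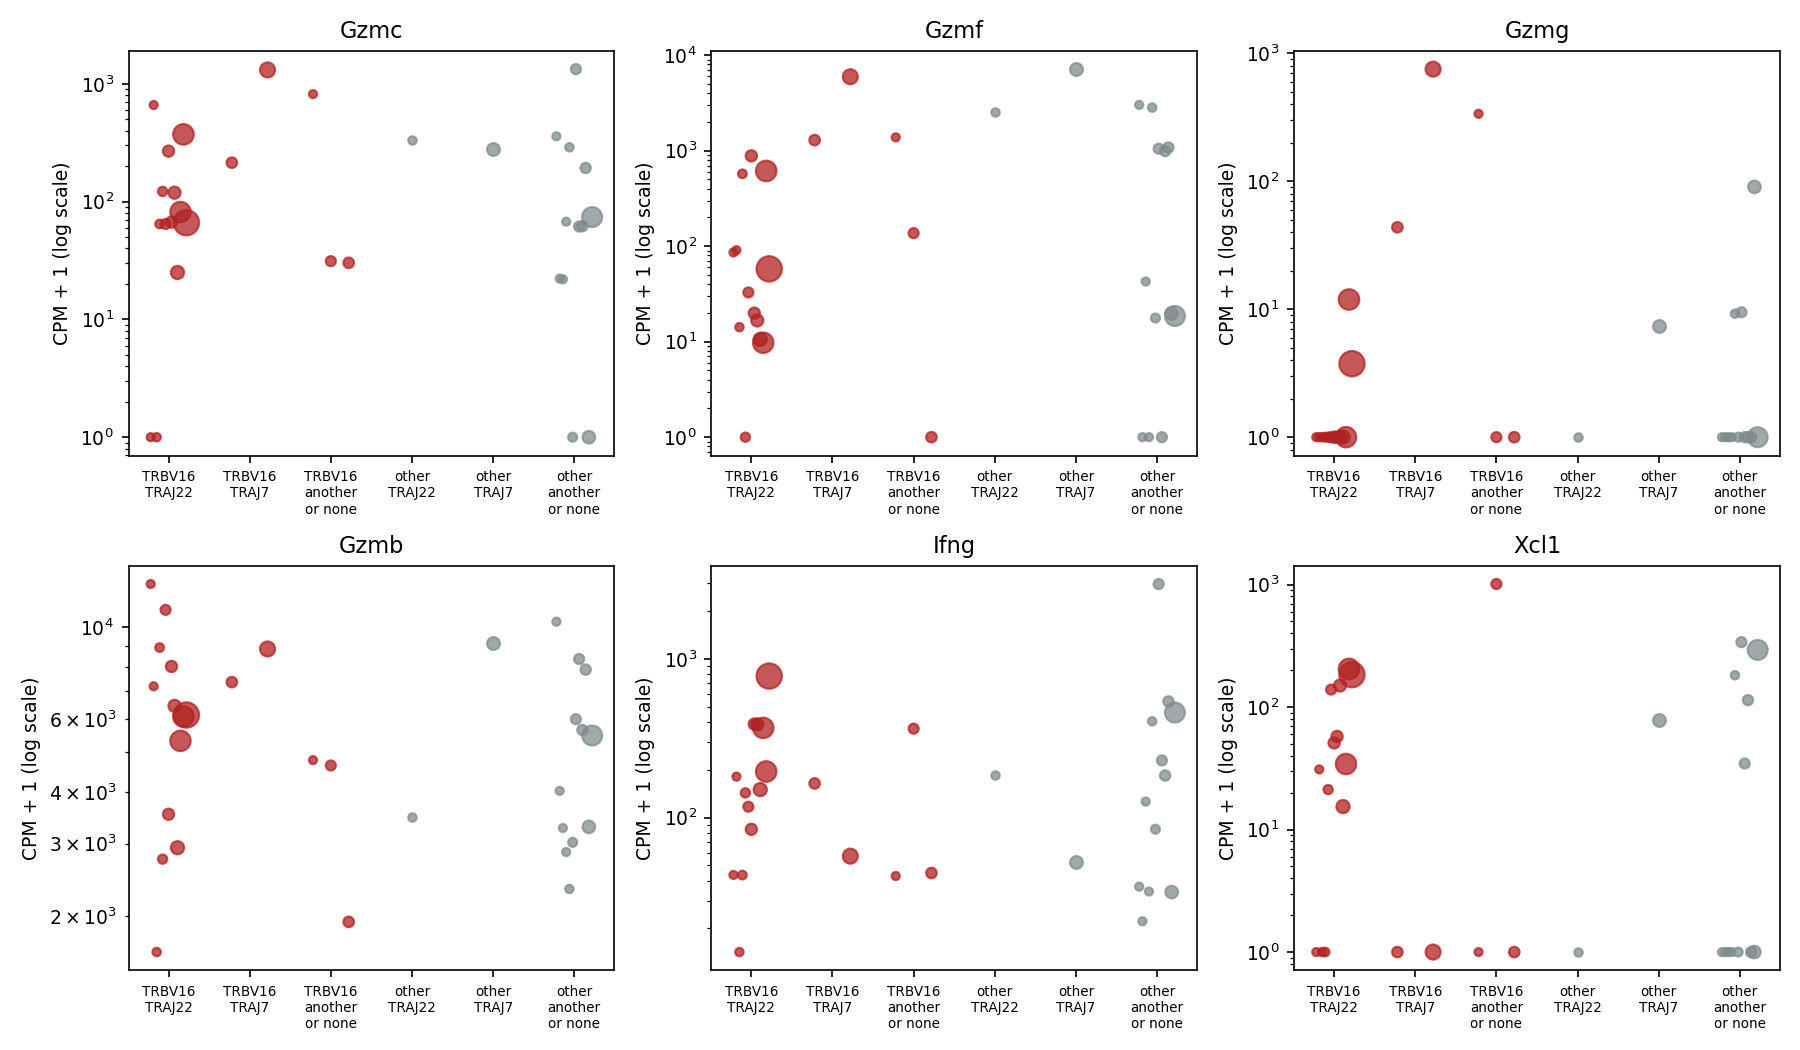
Level of 6 genes (y axis, CPM plus 1, log scale) in each RARα-KO clonotype with 8 or more cells of the set, grouped by V gene of the beta and J gene of the alpha chain (x axis), with point area growing with the number of cells. Gzmf is at 5950 CPM in clonotype 9 and 7150 CPM in clonotype 14, both with TRAJ7, and TRBV16 and other clonotypes overlap in every panel.

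Cytokine genes were spread over both sets. Of 12 cytokine and chemokine genes compared, 7 had an interval above 0 and 3 below, beside 5.0% and 7.39% of all genes, with a median of 0.18. With clonotypes weighted equally the median was 0.44. Ifng, the gene of interferon-γ, was at 421 and 316 CPM (log2 ratio 0.41, 0.30 to 0.53), Tnf at 92.8 and 65.1 CPM (0.51, 0.26 to 0.77), Xcl1, a ligand for cross-presenting dendritic cells, at 133 and 100 CPM (0.41, 0.21 to 0.62), and Ccl5 at 11500 and 10000 CPM (0.20, 0.18 to 0.22). Ccl3 was at 509 and 568 CPM (-0.16, -0.25 to -0.07). Over clonotypes, Ifng ran from 42.4 to 778 CPM with a median of 156 in TRBV16 and from 32.9 to 2960 with a median of 206 in the other set, so the order of the medians was opposite to that of the sums. Clonotype 1 gave 48.6% of the Ifng, 60.5% of the Ccl3 and 61.2% of the Tnf UMIs of TRBV16 cells, and without it the median of the list was -0.11.

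Heat shock and glycolysis genes were mostly lower in TRBV16 cells by small amounts. For heat shock, 11 of 12 genes were below 0 and 9 had an interval below 0, with a median of -0.12. The chaperones Hspa1a (148 and 252 CPM, -0.77) and Hspa1b (254 and 458 CPM, -0.85) were the lowest after Hspb1, and Hsp90aa1 was at 629 CPM in both. With each clonotype given equal weight, the median was 0.13. For glycolysis and hypoxia, 12 of 15 genes were below 0 and 8 had an interval below 0, with a median of -0.19. Bnip3, a hypoxia-induced mitophagy receptor, was at 140 and 214 CPM (-0.61), the glucose transporter Slc2a1 at 104 and 139 CPM (-0.42), and Ldha, lactate dehydrogenase, at 2160 and 2190 CPM (-0.02). With equal weight, this median was 0.15. Across all 6780 genes compared, 3636 were below 0 and 7.39% had an interval below 0. The median half-width of the log2 intervals was 0.1 for heat shock, 0.16 for glycolysis and hypoxia and 0.34 for all genes. Smaller ratios could thus exclude 0 in these lists, and the shares of intervals are not like for like.

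None of 11 inhibitory receptor and exhaustion genes was called, 0 had an interval above 0 and 3 below, beside 5.0% and 7.39% of all genes, and the median was 0.09. With clonotypes weighted equally it was 0.42. Pdcd1, the gene of PD-1, was at 365 and 451 CPM (-0.30, -0.41 to -0.20), with clonotypes from 225 to 729 CPM in TRBV16 and from 392 to 798 in the other set. Lag3 was at 591 and 586 CPM, Tigit at 359 and 361 CPM and Havcr2, the gene of TIM-3, at 272 and 298 CPM. Tcf7, the transcription factor of stem-like T cells, was at 23.0 and 38.3 CPM (-0.74, -1.15 to -0.34), and in 10.1% and 14.4% of cells. Over clonotypes of 10 or more cells, Tcf7 ran from 0.0 to 63.6 CPM in TRBV16 and from 0.0 to 83.4 in the other set. The median of these clonotypes was higher in TRBV16, so the order of the medians was opposite to that of the sums.

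The remaining lists had medians from -0.10 to 0.10. With clonotypes weighted equally, the median was 0.4 for the antigen-receptor response, -0.3 for naive and memory genes, -0.35 for interferon-stimulated genes and -0.31 for the cell cycle, whose median of 0.10 thus changed sign. Of all genes, 5.0% had an interval above 0 and 7.39% below. Genes with an interval above and below 0 were 5 and 2 of 16 for the antigen-receptor response, 3 and 2 of 14 for naive and memory genes, 2 and 1 of 14 for effector transcription factors, 2 and 2 of 15 for trafficking, and 2 and 2 of 15 for costimulation and cytokine receptors. They were 0 and 3 of 8 for NK-type receptors, 0 and 3 of 13 for interferon-stimulated genes, 6 and 0 of 18 for the cell cycle, 3 and 1 of 14 for the receptor complex and its proximal signalling, 0 and 1 of 3 for retinoid genes and 0 and 1 of 9 for genes that mark strain and sex. Nfkbid, an IκB protein induced by the TCR, was at 161 and 107 CPM (0.59, 0.39 to 0.78), and Irf4, a transcription factor induced with TCR strength, at 86.7 and 64.4 CPM (0.43, 0.17 to 0.69). Klrg1, a receptor of terminal effector cells, was at 15.7 and 26.8 CPM (-0.77, -1.26 to -0.28). Mki67, a marker of dividing cells, was at 80.7 and 76.6 CPM (0.07, -0.17 to 0.32).

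**Figure D5:**
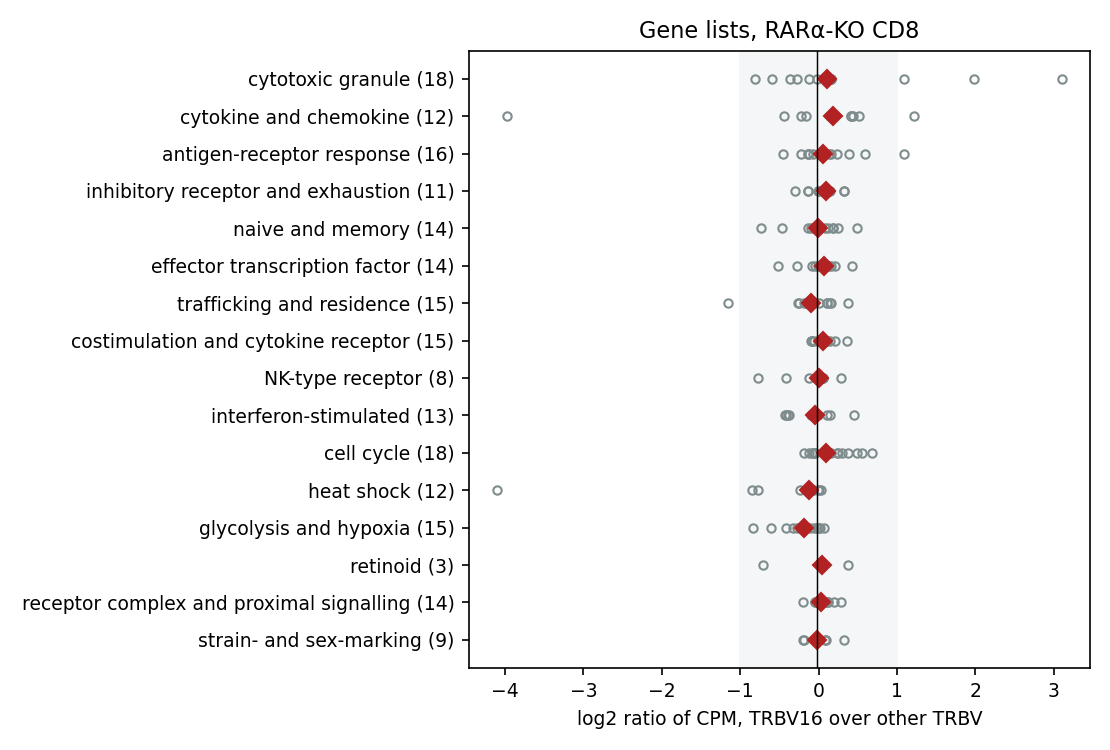
Log2 ratio of CPM, TRBV16 over other TRBV, for the compared genes of each list (circles) and the list's median (diamonds), with the number of genes after the list's name, the 2-fold range shaded and the median of all genes as a line. Medians run from -0.19 for glycolysis and hypoxia to 0.18 for cytokines and chemokines.

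Within TRBV16, more genes passed 2-fold between cells with TRAJ22 and cells with TRAJ7 than between TRBV16 and other cells. The 2 counts come from groups of unlike size. TRAJ7 cells had 482555 UMIs, while the smaller set of the TRBV16 comparison had 3027802. The part of group size in the counts was not tested. The TRAJ split was made after the alpha partners had been seen, and 61 TRAJ7 cells of 4 clonotypes, 63.9% of them of clonotype 9, stood against 399 TRAJ22 cells of 30 clonotypes, 29.8% of them of clonotype 1. Their median depth was 6022 and 5949 UMIs. Of 7214 genes compared, 445 (6.17%) were 2-fold or more higher in TRAJ22 cells and 288 (3.99%) were lower, with an interval that excluded 0. One clonotype gave most cells of the TRAJ7 group, so its values and those of TRAJ7 cells at large cannot be told apart.

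TRAJ7 cells had more of the granzymes of the Gzmc to Gzmg cluster. Gzmf was at 4380 CPM in TRAJ7 and 151 CPM in TRAJ22 cells, Gzmd at 1150 and 153, Gzmc at 930 and 94.6, Gzme at 595 and 103 and Gzmg at 510 and 2.02 CPM. Prf1 was at 1140 and 525 CPM and Gzmb at 8560 and 5800 CPM. Few cells carried the cluster's UMIs. Gzmf was detected in 21.3% of TRAJ7 cells, with 41.0% of its UMIs in 1 cell, and Gzmc in 19.7%, with 60.4% in 1 cell, whereas Prf1 was in 82.0% and Gzmb in 96.7% of TRAJ7 cells. By clonotype, Gzmf was at 5950 CPM in clonotype 9 and 1290 CPM in clonotype 31, and the 15 TRAJ22 clonotypes of 5 or more cells ran from 0.0 to 1470 CPM with a median of 23.3. In RARα-KO cells with another TRBV, TRAJ7 cells (44 cells, 59.1% of clonotype 14) had 4750 CPM of Gzmf, TRAJ22 cells 764 CPM and the rest 415 CPM. In WT, Gzmf was at 1730 CPM in TRBV16 TRAJ7 cells, at 3430 CPM in other TRBV TRAJ7 cells and at 2130 CPM in other cells without TRAJ7 or TRAJ22.

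Summed over cells, the called genes of several lists were all higher in TRAJ22 cells. They were 7 of 10 cytokine and chemokine genes (median log2 ratio 1.74), 8 of 17 antigen-receptor response genes (0.89) and 16 of 19 cell cycle genes (1.58). Interferon-stimulated genes had 6 of 13 (0.79). Costimulation and cytokine receptors had 3 of 15 (0.13), the receptor complex 2 of 14 (0.03) and strain- and sex-marking genes 2 of 8 (0.18). In each of these lists 0 genes were called lower. Of all 7214 genes 6.17% were called higher and 3.99% lower, with a median of 0.11. Of 18 cytotoxic granule genes, 1 was higher and 6 were lower, with a median of -0.42. Ifng was at 517 CPM in TRAJ22 and 145 CPM in TRAJ7 cells, Ccl3 at 624 and 172, Ccl4 at 2570 and 1150 and Xcl1 at 99.3 and 4.14 CPM (2 UMIs, log2 ratio 4.58, 2.72 to 7.63). Irf4 was at 100 and 16.6 CPM, Nfkbid at 177 and 29.0, Ccr7, the lymph node homing receptor, at 139 and 29.0, and Mki67 at 107 and 18.7 CPM. Crtam had 113 UMIs in TRAJ22 cells, 79 of them in clonotype 1, and 0 in TRAJ7 cells. With the floor of 3 UMIs put in for the TRAJ7 group it was 6.12-fold higher (log2 ratio 2.61, interval from 2.29 without an upper limit). The early response genes Egr1 (207 and 205 CPM, log2 ratio 0.01) and Jun (117 and 176 CPM, -0.59) were not called. Irf4 was detected in 26.8% and 11.5% of cells and Nfkbid in 30.8% and 16.4%. The 2 TRAJ7 clonotypes of 5 or more cells lay inside the range of the TRAJ22 clonotypes for Ifng (56.1 and 163 CPM against 13.2 to 778), for Ccl3 (71.1 and 90.5 against 0.0 to 1170) and for Irf4 (6.24 and 28.4 against 0.0 to 153). The median of the TRAJ22 clonotypes was 69.9 CPM for Ccl3 and 368 for Ccl4 (29.9 to 4770), below the 80.8 and 715 midway between both TRAJ7 clonotypes, so the order of the sums was not that of the clonotypes. Among the called cell cycle genes, the TRAJ22 median was above this midpoint for Mki67, Hmgb2, Ccnb2 and Ube2c. It was below for all the rest, as for Top2a (17.7 against 32.5 CPM) and Birc5 (0.0 against 7.8 CPM). One cell gave 35.5% of the Ccl3 and 19.6% of the Ccl4 UMIs of TRAJ22 cells. The 4 TRAJ7 cells of clonotype 57 were at 1600 CPM of Ifng, 2700 of Ccl3 and 17800 of Ccl4. Pdcd1 was at 533 CPM in TRAJ7 and 333 CPM in TRAJ22 cells and was not past 2-fold.

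The same comparison of TRBV16 and other TRBV in WT cells gave 56 genes higher (0.823% of 6804) and 160 lower (2.35%), from 80 TRBV16 cells, 45.0% of 1 clonotype, with 482083 UMIs. Gzmb was at 1740 and 2930 CPM in WT (log2 ratio -0.75), against 0.12 in RARα-KO. Gzma was at 45.6 and 977 CPM (-4.42), Ifng at 53.9 and 115 CPM (-1.09) and Pdcd1 at 1010 and 745 CPM (0.44), whereas in RARα-KO they were at -0.59, 0.41 and -0.30. The difference between genotypes was not tested. WT values rest on barcodes with weaker hashtags. At a hashtag 10 or more times the next, 18 WT TRBV16 cells were left, of which 0 were in clonotypes of 10 or more, and the share of other WT cells in such clonotypes was 23.9%. The RARα-KO values at that limit were 80.0% and 49.5%.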

How the data were processed

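Gene expression, hashtag and TCR libraries of 1 pool of 3 genotypes were analysed. The authors' Cell Ranger 6.1.0, on mm10, made the deposited counts: UMI counts per gene and hashtag, not normalized, for 730308 barcodes, 32285 genes and 3 hashtags, with 46394322 gene UMIs in all. The header of the matrix names another major version of Cell Ranger. The deposited contig table gave V and J genes, CDR3 sequences and contig UMI counts, which chose the beta and alpha contig of each cell, with ties broken by contig reads. Each clonotype took, per chain, the contig found in most of its cells.

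UMIs were summed over the cells of each set and given as CPM. TCR V, D, J and C genes were left out, and a gene needed a mean of 0.1 UMI per cell in 1 set. Log2 ratios had exact 95% intervals from the binomial split of the UMIs. A gene was called at 2-fold with an interval without 0. For a count of 0 the floor was 3 UMIs per group. Intervals were tested on simulated counts drawn independently for the summed sets. That simulation held no cells or clonotypes, so it could not show how UMIs gathered in 1 cell or 1 clonotype affect the intervals. Barcodes whose highest hashtag was under 3 times the next were left out, which removes only part of the doublets between genotypes. No doublet caller was used, so doublets within a genotype remained. Named genes were the 12 highest and 12 lowest called ones that kept their sign with clonotypes weighted equally and without the largest clonotype of either set, and genes of the lists. Some items that this rule names are not reported here. The members and lists were chosen with earlier results of these data known. Alternatives changed the hashtag ratio, depth, gate, contigs, weights, scaling, thinning and filters. Gene positions are those of GRCm38. Counts were handled with pandas 2.3.3 and numpy 2.4.6, intervals came from scipy 1.17.1 and plots from matplotlib 3.10.9, under Python 3.11.15.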

Additional observations from a re-analysis of the deposited data

Results flagged for a closer look

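The log2 ratio of TRBV16 over other TRBV cells had opposite signs in RARα-KO and WT for 3 called genes. It was 3.1 and -3.26 for Gzmg, 1.58 and -3.05 for Tubb3, and 1.09 and -1.47 for Crtam, and the difference between genotypes was not tested. In RARα-KO, clonotype 9 gave 89.2% of the Gzmg UMIs, 1 cell gave 68.7% of the Tubb3 UMIs, and clonotype 1 gave 56.4% of the Crtam UMIs of TRBV16 cells.

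CD8 barcodes that met no genotype's hashtag rule were used in no comparison. Of 114 such barcodes with 500 or more gene UMIs and a clonotype number, 25 carried TRBV16, and 21 of these 25 belonged to a clonotype of the RARα-KO TRBV16 cells.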

How the results depend on the processing

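Of the shares of cells and clonotypes recomputed under the alternatives, 174 moved by less than their interval and 10 by more. Of the gene ratios, 338 stayed within theirs, 64 moved and 9 turned sign. Some of these comparisons could not differ from the main ones. All 7209 contigs with a clonotype number were already productive, of high confidence and from called cells. The limit of 1000 UMIs left out no RARα-KO or WT cell, since the lowest had 1178 UMIs. TRAJ22 stayed between 71.8% and 74.4% of RARα-KO TRBV16 clonotypes. No paired analysis was possible because each genotype was 1 sample in 1 pool.

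In RARα-KO, genes called higher and lower numbered 2 and 5 at 0.5 UMI per cell, 92 and 265 without a filter, 76 and 69 with cells thinned to 1000 UMIs (Arg1 at -0.77) and 195 and 285 with clonotypes weighted equally. Equal weight gave Gzmd -0.1 and list medians of 0.4 for the antigen-receptor response, 0.44 for cytokines, 0.42 for inhibitory receptors, -0.3 for naive and memory genes, -0.35 for interferon-stimulated genes, -0.31 for the cell cycle, 0.13 for heat shock and 0.15 for glycolysis. Without the largest TRBV16 clonotype the medians of cytokines and heat shock were -0.11 and 0.02. Without the largest other clonotype 63 genes were lower and the cytokine median was 0.45. At a hashtag 10 times the next, Apoe was at -1.38 and C1qb at -1.49, and with 1 TRB and at most 2 TRA contigs Hspb1 was at 0.87. Among alternatives chosen after seeing the data, leaving out cells with markers of other types gave 12 lower genes, with Apoe at -2.5, Ccl2 at 1.5 and Nrp2 at 1.83, and leaving out TRAJ7 cells gave 70 lower genes, with Gzmg at -0.27. With clonotypes defined by beta nucleotides, 85.4%, 49.4% and 1.5% of TRBV16 cells were in clonotypes of 10 or more, 50 or more and 1.

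In WT, 171 and 92 genes were higher and lower at the 10-fold hashtag limit, 438 and 980 with equal weight, 92 and 21 after thinning and 0 and 12 at 0.5 UMI per cell. Higher genes were 133 without the largest TRBV16 clonotype and 101 without a filter, and lower genes were 99 with the gate on Cd8a or Cd8b1. At the 10-fold limit, 0.0% of TRBV16 cells were in clonotypes of 10 or more and 0.0% of 5 clonotypes used TRAJ22, and other cells were at 23.9%, 0.0% and 22.8% in clonotypes of 10 or more, 50 or more and 1. By beta nucleotides 66.2% of WT TRBV16 cells were in clonotypes of 50 or more, and over cells TRAJ7 was at 88.4%. The cause of these changes was not tested. WT TRBV16 values rest on 482083 UMIs.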
